A study of Mus musculus with 96 samples.

Results

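The genes described here are 40 markers of the cells that build brain blood vessels, chosen by name with earlier results of these data known. They are 26 endothelial genes, 10 genes of mural cells (pericytes and smooth muscle) and 4 genes of perivascular and meningeal fibroblasts. All 40 were found once among the 48795 genes of the deposited count table, and all 40 passed the filter on low counts in both tissues. The libraries come from the striatum and the cerebral cortex of 48 C57BL/6 mice killed at 6 months of age, 8 mice (4 male and 4 female) in each of 6 genotypes. The genotypes are Q140 Msh6-/-, Q140 Msh6+/-, Q140, Msh6-/-, Msh6+/- and wild type. Q140 mice carry 1 copy of a modified Htt, the gene mutated in Huntington's disease, whose CAG repeat was lengthened by knock-in, beside a normal copy. Msh6 encodes part of a complex that recognises mismatched DNA. The cross asks whether losing Msh6 alters the expression changes that come with Q140. Every mouse gave both tissues, and no group was sorted or enriched for vessels. The main tests between striatum and cortex had no term for the animal and so did not use this pairing. A fit with the animal as a replicate block is given beside them.

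Endothelial cells line the brain's capillaries and, through tight junctions and dedicated transporters, form the blood-brain barrier. Pericytes sit on the capillary wall under the control of PDGF-B signalling from the endothelium, and contractile smooth muscle cells wrap arterioles. Fibroblasts lie around larger vessels and in the meninges and lay down collagen. In whole tissue these cells are a small minority: the 40 genes held a median of 0.0891% of all counts in striatum and 0.0895% in cortex. Because the tissue was not sorted, fewer cells of a type and less RNA per cell cannot be told apart for any result here.

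Library depth was 12.4 to 21.11 M counts in striatum (median 18.66) and 16.73 to 22.89 M counts in cortex (median 20.265), where M stands for mega. Msh6 transcript followed the genotype labels, with medians of 8.048 CPM (counts scaled to the library total) in Q140 Msh6-/- striatum, 13.862 in Q140 Msh6+/- striatum and 18.593 in Q140 striatum, against 7.945 in Msh6-/-, 13.786 in Msh6+/- and 17.397 in wild-type striatum. In cortex the same 6 medians were 8.164, 13.477 and 20.38 CPM with Q140, and 8.998, 14.089 and 19.442 CPM without it. A few libraries stood apart. The striatal library of Q140 Msh6-/- mouse 21-3 had a summed choroid plexus signal of 2832.35 CPM, against a striatal median of 27.81. The striatal libraries of Msh6-/- mouse 32-1 and wild-type mouse 21-1 had the highest endothelial levels for their genotype, and the Q140 Msh6+/- mouse 21-5 gave the striatal library with the fewest counts. Haemoglobin transcripts were highest in Msh6-/- mouse 29-2, at 53.34 CPM in striatum and 52.77 in cortex.

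Start regions were read for the members listed in a reference table. Of the 40 genes, 26 had an entry in this table, taken from RefSeq on GRCm38.p6. The letters AGGAAG, on either strand, the core bound by ETS factors such as Erg, stood in the 250 bases before the start of 13 of 18 endothelial entries, and in 0 of 8 mural and fibroblast entries. The same letters stood in 32.3% of the start regions of all 27025 genes in the table. The CArG box, the site of serum response factor in smooth muscle genes, was searched as the exact letters CCWWWWWWGG, where W is A or T. It stood in 0 of the 26 members with an entry and in 1.62% of all genes. A site with any other letter in its core was not counted, so this does not show that Acta2 lacks one. Of the 3 smooth muscle members only Acta2 had an entry, so this says nothing of Tagln and Myh11. A match in these windows is a string of letters and not a measured binding site. The start regions below are shown because Flt1, Eng and Rgs5 gave results in every Msh6 genotype, while Emcn is a venous and capillary gene. They read 5′ to 3′ on the gene's strand, with AGGAAG or its complement CTTCCT in capitals, over chr5:147726012-147726261 (minus strand) for Flt1, chr2:32646345-32646594 (plus) for Eng, chr3:137340828-137341077 (plus) for Emcn and chr1:169655251-169655500 (plus) for Rgs5.
Flt1: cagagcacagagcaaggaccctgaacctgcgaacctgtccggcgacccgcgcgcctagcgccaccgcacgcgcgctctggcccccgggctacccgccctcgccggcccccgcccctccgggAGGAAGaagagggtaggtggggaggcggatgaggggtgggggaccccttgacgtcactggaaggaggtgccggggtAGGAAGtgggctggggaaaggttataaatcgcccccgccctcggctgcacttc
Eng: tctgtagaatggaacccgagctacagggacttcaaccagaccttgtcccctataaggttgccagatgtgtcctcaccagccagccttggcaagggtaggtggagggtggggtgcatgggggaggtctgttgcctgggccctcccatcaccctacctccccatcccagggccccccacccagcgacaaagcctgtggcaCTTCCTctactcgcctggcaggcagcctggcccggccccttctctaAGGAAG
Emcn: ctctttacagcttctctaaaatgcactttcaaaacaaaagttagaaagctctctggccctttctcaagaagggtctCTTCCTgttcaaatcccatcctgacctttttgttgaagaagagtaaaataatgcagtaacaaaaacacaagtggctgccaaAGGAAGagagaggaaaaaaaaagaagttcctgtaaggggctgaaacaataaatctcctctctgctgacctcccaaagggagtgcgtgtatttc
Rgs5: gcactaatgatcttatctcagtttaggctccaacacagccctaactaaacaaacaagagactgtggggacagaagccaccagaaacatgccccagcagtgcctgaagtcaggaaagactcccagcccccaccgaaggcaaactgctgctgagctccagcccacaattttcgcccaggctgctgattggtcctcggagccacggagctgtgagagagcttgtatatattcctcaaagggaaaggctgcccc
The endothelial genes Flt1, Eng and Emcn each held 2 copies of the letters, and the pericyte gene Rgs5 held none.

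Levels between genes can be compared per length, and in wild-type mice they spanned a wide range. In striatum the highest mean FPKM (the count scaled by gene length and library total) was that of Slc2a1, the glucose transporter of the barrier, at 34.1 ± 8.32 (SD, n = 8). Vtn, a matrix protein secreted by brain pericytes, followed at 24.4 ± 1.70 FPKM, Rgs5 at 24.1 ± 1.70 and the endothelial gene Itm2a at 21.5 ± 2.08. Vtn and Rgs5 did not differ beyond their spread, and Slc2a1 varied most between mice. The lowest were the fibroblast genes Col1a1, Col1a2 and Lum, at 0.452, 0.392 and 0.325 FPKM. In cortex the same 4 genes led, with Slc2a1 at 31.8 ± 7.44 FPKM, and the lowest mean was that of Emcn, at 0.816 ± 0.114 FPKM.

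In the striatum, Q140 mice had lower levels of most vessel genes. Averaged over the 3 Msh6 genotypes (24 mice with Q140 against 24 without), 26 of 40 members fell and 0 rose at an adjusted p under 0.05 (edgeR quasi-likelihood test, adjusted over all genes). Of all 17503 genes tested in striatum 52.7% were called in this comparison, 29.1% higher and 23.6% lower, so calls in either direction were common in this tissue, while those of the members all ran downwards. On log2 FPKM, a scaling without TMM, the split over all genes was 8237 higher and 2530 lower, against 5098 and 4127 in the count test, and 21 members fell. The calls fell on 18 of 26 endothelial genes, 8 of 10 mural genes and 0 of 4 fibroblast genes. The changes were small: the median log2 fold change was -0.17 over the 40 members, -0.19 over the endothelial genes, -0.19 over the mural genes and -0.05 over the fibroblast genes, against 0.02 over all genes. All 40 estimates were below 0. The groups of 24 overlapped for every member.

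**Figure D1:**
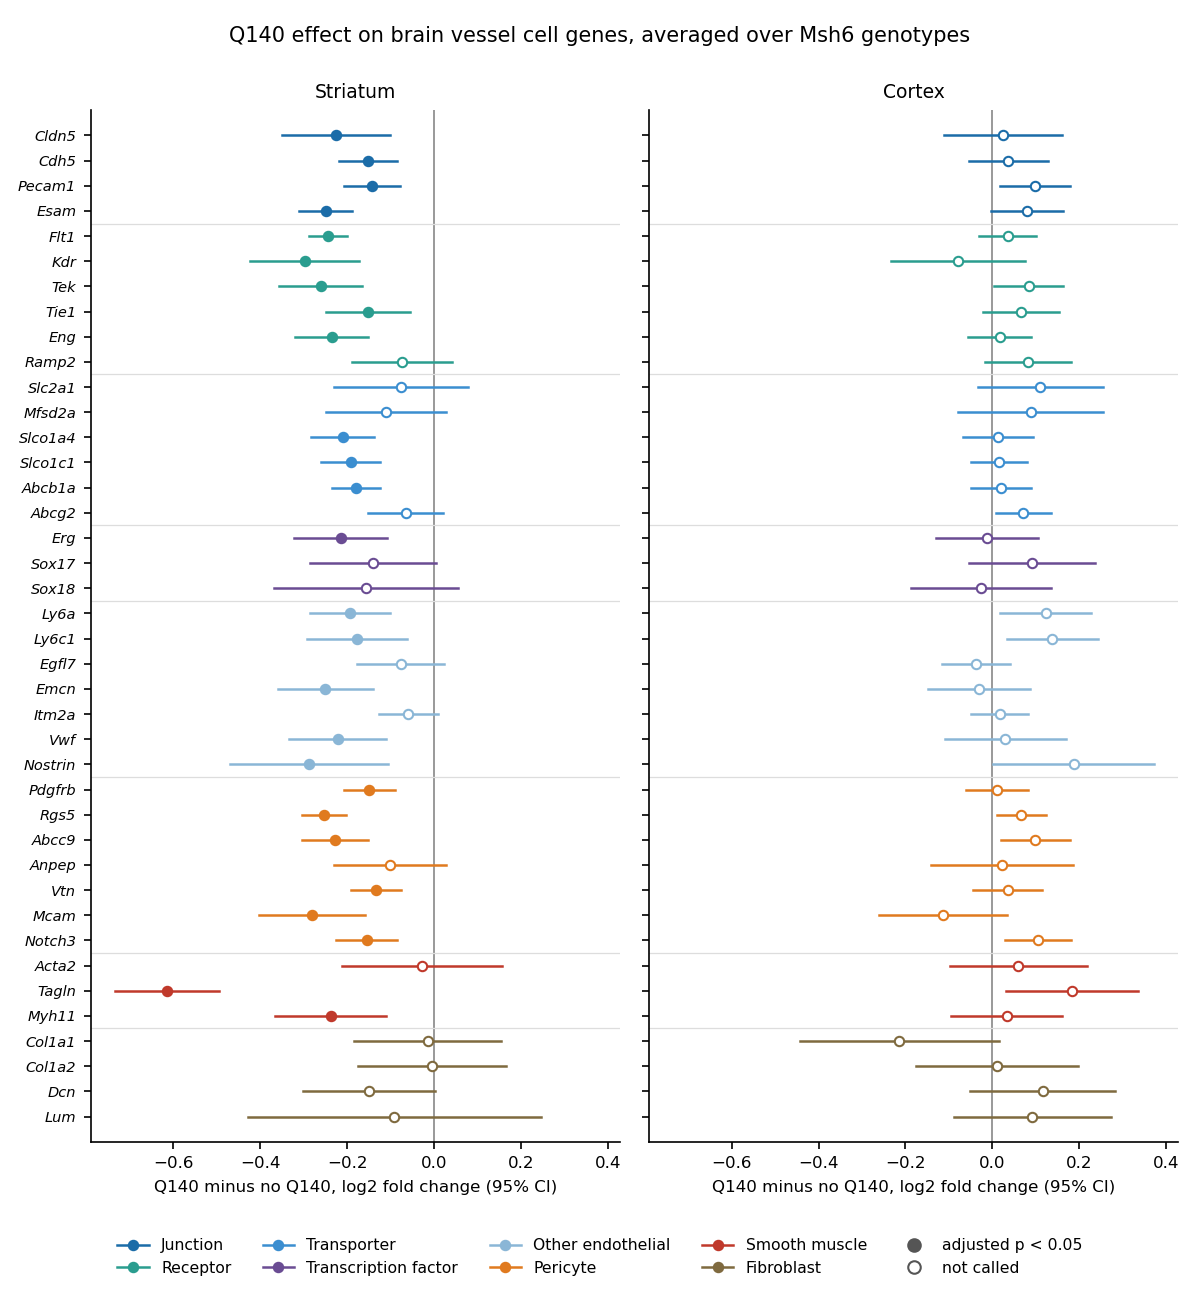
Log2 fold change of the 40 vessel genes with Q140 against without Q140 (x axis, averaged over Msh6 genotypes, bars are 95% confidence intervals), grouped by role, in striatum and in cortex; filled points have an adjusted p under 0.05. In striatum all 40 points lie below 0 and 26 are filled, and in cortex no point is filled and 33 lie above 0.

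The vessel gene with the largest difference was Tagln, which encodes transgelin, an actin-binding protein of contractile smooth muscle (chr9:45929619-45936058, GRCm38, minus strand). Striatal Tagln was 3.82, 5.15 and 6.85 CPM (lowest, median and highest of 24 mice) with Q140, against 5.59, 7.61 and 11.7 CPM without it. Every Q140 mouse lay below the median of the mice without Q140, and 18 of 24 lay below the lowest of them. The log2 fold change was -0.61 ± 0.0595 (SE; edgeR adjusted p = 1.19e-12), a 0.653-fold level. Tagln overlaps Pcsk7, and since the strand setting of the counting is not given in the sources used here, reads of the 2 genes may have been shared; Pcsk7 itself changed by -0.01 (edgeR adjusted p = 0.7413). The other smooth muscle genes did not move as far. Myh11, the smooth muscle myosin heavy chain, fell by 0.24 on the log2 scale (edgeR adjusted p = 0.00145). Acta2, the smooth muscle actin, stood at 4.65, 7.03 and 10.5 CPM with Q140, against 3.86, 7.21 and 11.8 CPM without it. These Acta2 ranges nearly coincide, the log2 difference was -0.03 with an interval of -0.21 to 0.16, and the edgeR adjusted p was 0.823.

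**Figure D2:**
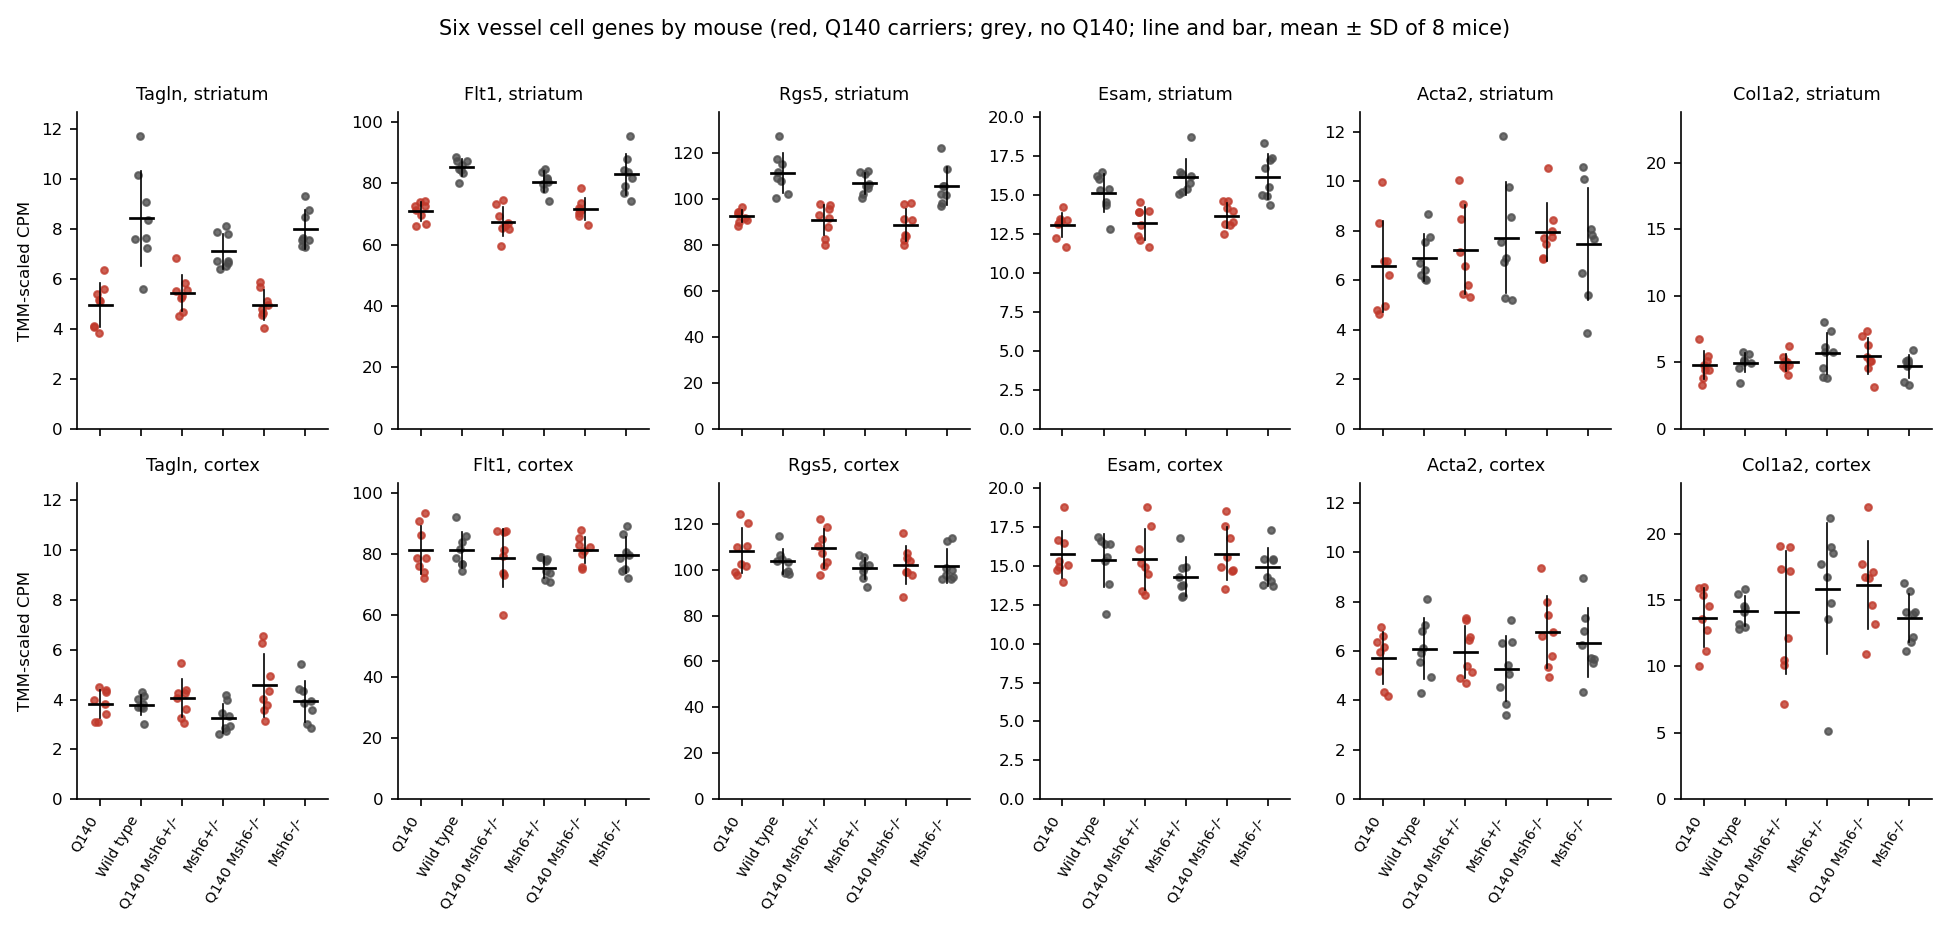
Scaled CPM (y axis) of Tagln, Flt1, Rgs5, Esam, Acta2 and Col1a2 in each mouse, by genotype in striatum and cortex; each point is 1 mouse, red with Q140 and grey without, and lines with bars are the mean ± SD of 8 mice. In striatum the red points of Tagln, Flt1, Rgs5 and Esam sit mostly below the grey ones within each Msh6 genotype, while those of Acta2 and Col1a2 overlap with them.

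Among the pericyte genes, Rgs5, a regulator of G protein signalling that marks brain pericytes (chr1:169655501-169695813), had the clearest separation. Its striatal level was 80.0, 91.4 and 98.0 CPM with Q140, against 97.0, 105.9 and 127.4 CPM without it. Of the 24 Q140 mice, 20 lay below the lowest mouse without Q140, and the log2 fold change was -0.25 ± 0.0255 (edgeR adjusted p = 3.76e-12). Abcc9, the sulphonylurea receptor subunit of the potassium channel in pericytes, was 12.1, 14.7 and 18.1 CPM with Q140, against 14.8, 17.4 and 20.7 CPM without it (-0.23; edgeR adjusted p = 1.01e-06). Pdgfrb, the receptor through which the endothelium recruits pericytes, was 21.0, 25.6 and 30.1 CPM with Q140, against 24.9, 27.6 and 33.0 CPM without it (-0.15; edgeR adjusted p = 2.5e-05). For Pdgfrb the ranges overlap, but 23 of 24 Q140 mice lay below the median of the others and 11 below the lowest of them. Notch3 fell by 0.16 on the log2 scale (edgeR adjusted p = 1.99e-04), Vtn fell by 0.13 (1.14e-04) and Mcam, an adhesion molecule also present on endothelium, fell by 0.28 (9.64e-05). Anpep, the peptidase CD13 of pericytes, differed by -0.10 and did not pass (edgeR adjusted p = 0.185).

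Among the endothelial receptors, Flt1, the VEGF receptor that binds its ligand without strong signalling (chr5:147561604-147726011, minus strand), had the smallest adjusted p of the 40 genes. Flt1 was 59.4, 70.7 and 78.6 CPM with Q140, against 74.1, 83.5 and 95.4 CPM without it. Of the 24 Q140 mice, 21 lay below the lowest mouse without Q140 (-0.24 ± 0.0216; edgeR adjusted p = 5.93e-14). Kdr, the main signalling receptor for VEGF, was 5.39, 8.75 and 11.5 CPM with Q140, against 8.27, 11.2 and 13.8 CPM without it (-0.30; edgeR adjusted p = 6.24e-05). The angiopoietin receptor Tek was 9.10, 11.6 and 14.3 CPM with Q140, against 10.9, 14.3 and 17.0 CPM without it (-0.26; edgeR adjusted p = 7.44e-06). Both of these receptors shifted by a similar amount as Flt1 with a wider spread between mice. On log2 FPKM with a pseudocount of 1 the Flt1 difference was -0.15. The TGF-beta co-receptor Eng fell by 0.24 (edgeR adjusted p = 4.27e-06) and Tie1 by 0.15 (0.00637), while Ramp2, which partners the adrenomedullin receptor, differed by -0.07 and did not pass (0.281). Eng overlaps Fpgs, and Ramp2 overlaps Vps25, so both are uncertain. Flt1, Kdr and the transporter gene Abcb1a lie on chromosome 5, which also carries Htt.

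Among the junction genes, Esam, an adhesion molecule of endothelial tight junctions (chr9:37528078-37538319), was 11.6, 13.3 and 14.6 CPM with Q140, against 12.8, 15.7 and 18.8 CPM without it. All 24 Q140 mice were below the median of the others (-0.25 ± 0.0302; edgeR adjusted p = 7.65e-10), and on log2 FPKM with a pseudocount of 1 the difference was -0.15. Cldn5, the main claudin of the barrier, was 9.19, 12.3 and 16.1 CPM with Q140, against 10.8, 14.0 and 25.1 CPM without it (-0.23; edgeR adjusted p = 0.00192). Cdh5, the cadherin of endothelial junctions, fell by 0.15 on the log2 scale (edgeR adjusted p = 1.45e-04), and Pecam1 fell by 0.14 (1.89e-04). All 4 junction genes therefore passed the test, Cldn5 with the widest spread among mice without Q140.

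Some barrier transporters passed the test and others did not, while all their estimates were negative. Differences between the transporters were not tested. Abcb1a, the drug efflux pump P-glycoprotein, was 30.0, 35.7 and 39.2 CPM with Q140, against 36.0, 40.2 and 45.0 CPM without it (-0.18; edgeR adjusted p = 2.03e-07). Slco1c1, which carries thyroid hormone, was 39.5, 45.7 and 66.5 CPM with Q140, against 46.1, 54.0 and 61.5 CPM without it (-0.19; edgeR adjusted p = 4.38e-06). The highest Q140 value is that of mouse 21-3, the library with the choroid plexus signal, and the next was 54.0 CPM. The organic anion transporter Slco1a4 fell by 0.21 (edgeR adjusted p = 1.98e-06). The 3 others did not pass: Slc2a1 differed by -0.08 (edgeR adjusted p = 0.424), the lipid transporter Mfsd2a by -0.11 (0.176) and the efflux pump Abcg2 by -0.07 (0.193). Slc2a1 was 80.4, 105.5 and 160.3 CPM with Q140, against 87.3, 114.1 and 181.3 CPM without it. Its interval of -0.23 to 0.08 on the log2 scale still holds falls as large as those of Abcb1a and Slco1c1.

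Of the endothelial transcription factors Erg fell by 0.22 (edgeR adjusted p = 5.67e-04), while Sox17 differed by -0.14 (0.0969) and Sox18 by -0.16 (0.21) without passing. Of the other endothelial genes, the sialomucin Emcn fell by 0.25 (edgeR adjusted p = 1.02e-04), von Willebrand factor Vwf by 0.22 (7.26e-04), Ly6a by 0.19 (3.54e-04), Ly6c1 by 0.18 (0.0075) and Nostrin, which traffics endothelial nitric oxide synthase, by 0.29 (0.00623). Nostrin was 2.19, 3.35 and 5.00 CPM with Q140, against 1.78, 4.09 and 6.63 CPM without it, and here the lowest mouse of all had no Q140. Itm2a (-0.06) and Egfl7 (-0.08, overlapping Agpat2) did not pass.

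The fibroblast genes showed no call. Col1a2 was 3.11, 5.05 and 7.32 CPM with Q140, against 3.31, 5.05 and 8.01 CPM without it, so the medians were the same. Col1a1 differed by -0.02 (edgeR adjusted p = 0.899). Dcn differed by -0.15 (0.0901). Lum, at 0.246, 0.669 and 1.88 CPM with Q140 against 0.166, 0.794 and 1.16 CPM without it, had its highest Q140 value in mouse 21-3 (the next was 0.924 CPM) and was too sparse for its interval of -0.43 to 0.24 to exclude changes the size of those in the endothelial genes.

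Within each Msh6 genotype, pairs of 8 mice gave fewer calls in the same direction. In Msh6-/- mice 14 members fell with Q140, 9 endothelial and 5 mural, where 33.0% of all genes were called and 15.2% fell. In Msh6+/- mice 19 fell, 13 endothelial and 6 mural (background 31.2% called, 14.9% lower). In Msh6+/+ mice, Q140 against wild type, 14 fell, 10 endothelial and 4 mural (background 29.7% called, 14.2% lower). No member rose in any of the 3 pairs. On log2 FPKM with limma the counts were 6 in Msh6-/- and 9 in Msh6+/+ mice, and the Msh6-/- pair fitted alone gave 9. The Msh6-/- count was also 9 without the striatal libraries of mice 32-1 and 21-1, an alternative chosen after seeing the data. The same 7 genes passed in all 3 pairs: Esam, Flt1, Eng, Abcb1a, Rgs5, Abcc9 and Tagln. Of the others, 9 passed in exactly 2 pairs, 8 in exactly 1 and 16 in none, and 29 members were negative in all 3. No share over all genes is given for these counts across pairs, so they have no background to be set against.

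Striatal Tagln was 4.04, 4.88 and 5.87 CPM in Q140 Msh6-/- mice, against 7.27, 7.60 and 9.34 CPM in Msh6-/- mice, so the 2 groups of 8 did not overlap. It was 4.52, 5.42 and 6.85 CPM in Q140 Msh6+/- mice, against 6.42, 6.72 and 8.12 CPM in Msh6+/- mice. It was 3.82, 5.14 and 6.37 CPM in Q140 mice, against 5.59, 8.01 and 11.7 CPM in wild-type mice. In these last 2 pairs the groups overlap at their edges. The Tagln log2 fold changes were -0.69 in Msh6-/- mice (edgeR adjusted p = 4.29e-07), -0.40 in Msh6+/- mice (0.00227) and -0.76 in Msh6+/+ mice (4.64e-08).

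Flt1 was 66.3, 71.3 and 78.6 CPM in Q140 Msh6-/- striatum, against 74.3, 82.7 and 95.4 CPM in Msh6-/- striatum. It was 59.4, 66.4 and 74.4 CPM in Q140 Msh6+/- striatum, against 74.1, 80.8 and 84.8 CPM in Msh6+/- striatum. It was 66.0, 71.9 and 74.2 CPM in Q140 striatum, against 80.0, 85.3 and 88.7 CPM in wild-type striatum. Only the Msh6+/+ pair was without overlap for Flt1. Rgs5 was 80.1, 87.6 and 98.0 CPM in Q140 Msh6-/- striatum, against 97.0, 103.8 and 122.3 CPM in Msh6-/- striatum. It was 80.0, 92.2 and 97.6 CPM in Q140 Msh6+/- striatum, against 100.3, 105.9 and 112.2 CPM in Msh6+/- striatum. It was 88.1, 92.6 and 96.6 CPM in Q140 striatum, against 100.5, 110.3 and 127.4 CPM in wild-type striatum. For Rgs5 the Msh6+/- and Msh6+/+ pairs did not overlap, and in the Msh6-/- pair the highest Q140 value passed the lowest of the others by about 1 CPM. Pairs of 8 without overlap, all lower with Q140, numbered 1 member in Msh6-/- mice (Tagln; background 4.79% of genes), 3 in Msh6+/- mice (Esam, Slco1a4 and Rgs5; 4.89%) and 4 in Msh6+/+ mice (Flt1, Slco1c1, Ly6a and Rgs5; 4.2%). The first of these shares is below the background.

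No member showed a Q140 effect that differed between Msh6 genotypes. The interactions of Q140 with Msh6-/- and with Msh6+/- called 0 members in either tissue under edgeR and under DESeq2, and edgeR called 0% of all genes. At an unadjusted p under 0.05 there were 4 members for each interaction in striatum, and 1 (Msh6-/-) and 0 (Msh6+/-) in cortex. For counts at an unadjusted p, here and below, no share over all genes is given, so they cannot be read as many or few. Some estimates did look uneven: Mcam differed by -0.39 in Msh6-/- mice (edgeR adjusted p = 0.00263) and -0.43 in Msh6+/- mice (0.00104), and by -0.02 in Msh6+/+ mice (0.924). Vwf differed by -0.11 in Msh6-/- mice (edgeR adjusted p = 0.427), -0.41 in Msh6+/- mice (8.21e-04) and -0.15 in Msh6+/+ mice (0.268). With the interactions not called, neither gene is shown to respond differently by Msh6 genotype.

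**Figure D3:**
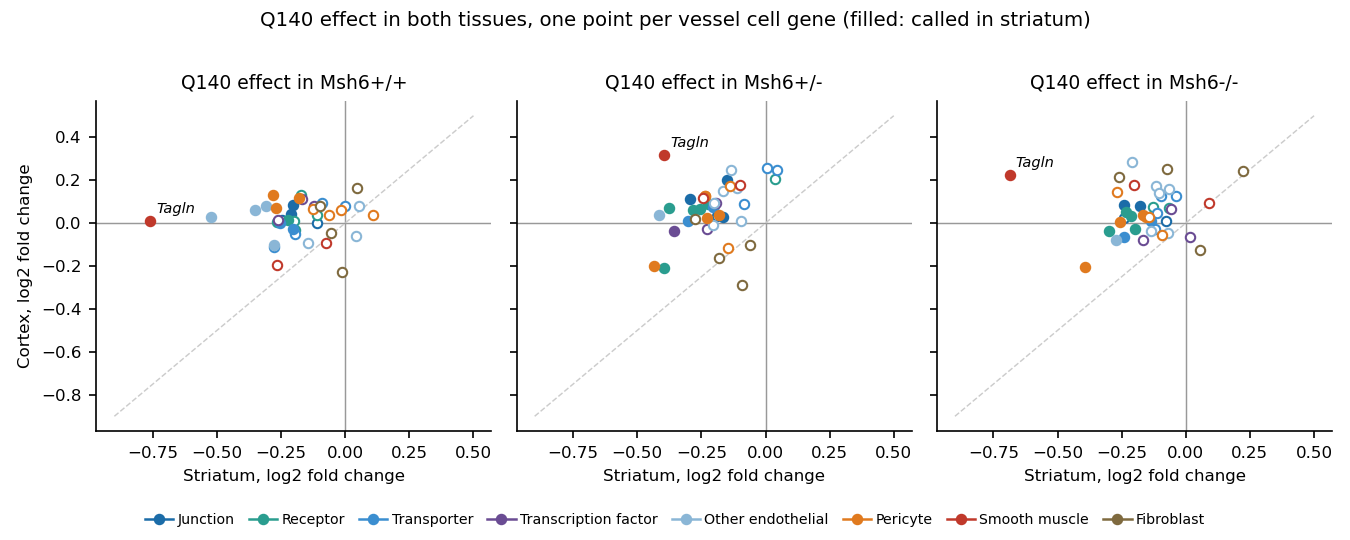
Q140 log2 fold change of each of the 40 vessel genes in striatum (x axis) and in cortex (y axis), separately in Msh6+/+, Msh6+/- and Msh6-/- mice; each point is 1 gene and Tagln is labelled. In each panel most points lie left of 0 and spread around 0 on the cortical axis. Tagln lies farthest left in Msh6-/- and Msh6+/+ mice, while Mcam, at -0.43, does in Msh6+/- mice.

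In the cortex no vessel gene passed the test for Q140. Averaged over Msh6 genotypes, edgeR called 0 members, as did DESeq2, where 1.54% of all 17622 genes were called. At an unadjusted p under 0.05 there were 10 members, a count with no share over all genes beside it. The median log2 fold change of the members was 0.04, and 33 estimates were above 0 and 7 below. Cortical Tagln was 3.07, 4.04 and 6.54 CPM with Q140, against 2.61, 3.69 and 5.41 CPM without it (0.18; edgeR adjusted p = 0.242). Notch3 was 14.7, 18.0 and 22.0 CPM with Q140, against 14.6, 16.7 and 19.5 CPM without it (0.11; edgeR adjusted p = 0.158). The ranges overlap for both genes, and the highest mice carry Q140. The 3 single pairs called 0 members (backgrounds 0.136% in Msh6-/-, 0.193% in Msh6+/- and 0.017% in Msh6+/+ mice), with 0, 6 and 0 at an unadjusted p under 0.05 in that order. DESeq2 also called 0 members in these pairs, but it gave no adjusted p for 37 members in the Msh6+/+ and the Msh6+/- pair.

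The difference between the tissues was itself tested in 1 fit of all 96 libraries, with no term for the animal. The Q140 effect was lower in striatum than in cortex for 25 members and higher for 0, where 37.5% of all 18440 genes were called and 16.2% were lower in striatum. These 25 were 18 endothelial and 7 mural genes, and the median difference over the 40 members was -0.21 on the log2 scale. Tagln differed most, with -0.61 in striatum and 0.18 in cortex, a difference of -0.79 ± 0.0988 (edgeR adjusted p = 7.71e-11). The difference was -0.32 for Rgs5 (edgeR adjusted p = 3.21e-11), -0.27 for Flt1 (5.41e-09), -0.32 for Esam (1.12e-07), -0.34 for Tek (3.84e-06) and -0.47 for Nostrin (0.00246). Kdr and Mcam were called in striatum and not in this difference, and Abcg2 was called in this difference and not in striatum (edgeR adjusted p = 0.035). With the animal as a replicate block, which uses the pairing of the tissues within a mouse, 32 members passed in place of 25. None was lost, and Kdr (edgeR adjusted p with the block = 0.00105), Slc2a1 (8.62e-06), Mcam (0.00716), Mfsd2a (0.0098), Sox17 (0.0046), Ramp2 (0.027) and Dcn (0.038) were gained. On log2 FPKM with limma the count was 15.

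Msh6 genotype alone moved no vessel gene past the test. Averaged over mice with and without Q140, Msh6-/- against Msh6+/+ called 0 members in striatum (background 0.263%) and 0 in cortex (0.284%), and Msh6+/- against Msh6+/+ called 0 in striatum (0.0229%) and 0 in cortex (0.0113%), with edgeR and with DESeq2. At an unadjusted p under 0.05 the counts were 4 in striatum and 5 in cortex for Msh6-/-, and 3 and 0 for Msh6+/-. The smallest adjusted p belonged to Cldn5 in Msh6-/- striatum, with a log2 difference of 0.25 (edgeR adjusted p = 0.295). Sex did not separate the vessel genes either. Females against males called 0 members in striatum (background 5.54%) and 0 in cortex (6.31%) under edgeR, and DESeq2 called 1 in cortex. At an unadjusted p under 0.05 there were 10 and 8 members. The backgrounds printed for Msh6 genotype and sex are of adjusted calls and do not apply to the unadjusted counts. Nearest to the threshold were Notch3 in striatum (-0.11, lower in females; edgeR adjusted p = 0.065) and Pdgfrb in cortex (-0.11; 0.065).

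Striatum was also compared with cortex in the same mice, by the fit with no term for the animal. Of the 40 members 13 were higher and 18 lower in striatum, a smaller share than the 87.1% of all genes that were called, 45.2% higher and 41.9% lower, so the number of calls is no result about vessel genes. Among mural genes 7 were higher and 2 lower, among endothelial genes 6 were higher and 12 lower, and all 4 fibroblast genes were lower. Mcam was 9.85, 18.6 and 26.0 CPM in striatum, against 5.34, 9.82 and 12.9 CPM in cortex (log2 difference 0.94). Tagln was 3.82, 6.39 and 11.7 CPM in striatum, against 2.61, 3.85 and 6.54 CPM in cortex (0.70). Acta2 (0.28), Notch3 (0.26), Myh11 (0.18) and Abcc9 (0.14) were also higher in striatum, as was the endothelial gene Emcn (0.40). Col1a2 was 3.11, 5.05 and 8.01 CPM in striatum, against 5.16, 14.6 and 22.0 CPM in cortex, a log2 difference of -1.52. Of the 48 striatal libraries 17 lay above the lowest cortical one, and 2 of 48 cortical libraries lay below the highest striatal one. Lum (-1.66), Col1a1 (-1.04) and Dcn (-0.91) were lower too, and so was Anpep (-0.78). Among the endothelial genes the lower ones included Egfl7 (-0.41), Ramp2 (-0.39), Abcg2 (-0.33), Sox18 (-0.28) and Cldn5 (-0.24).

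**Figure D4:**
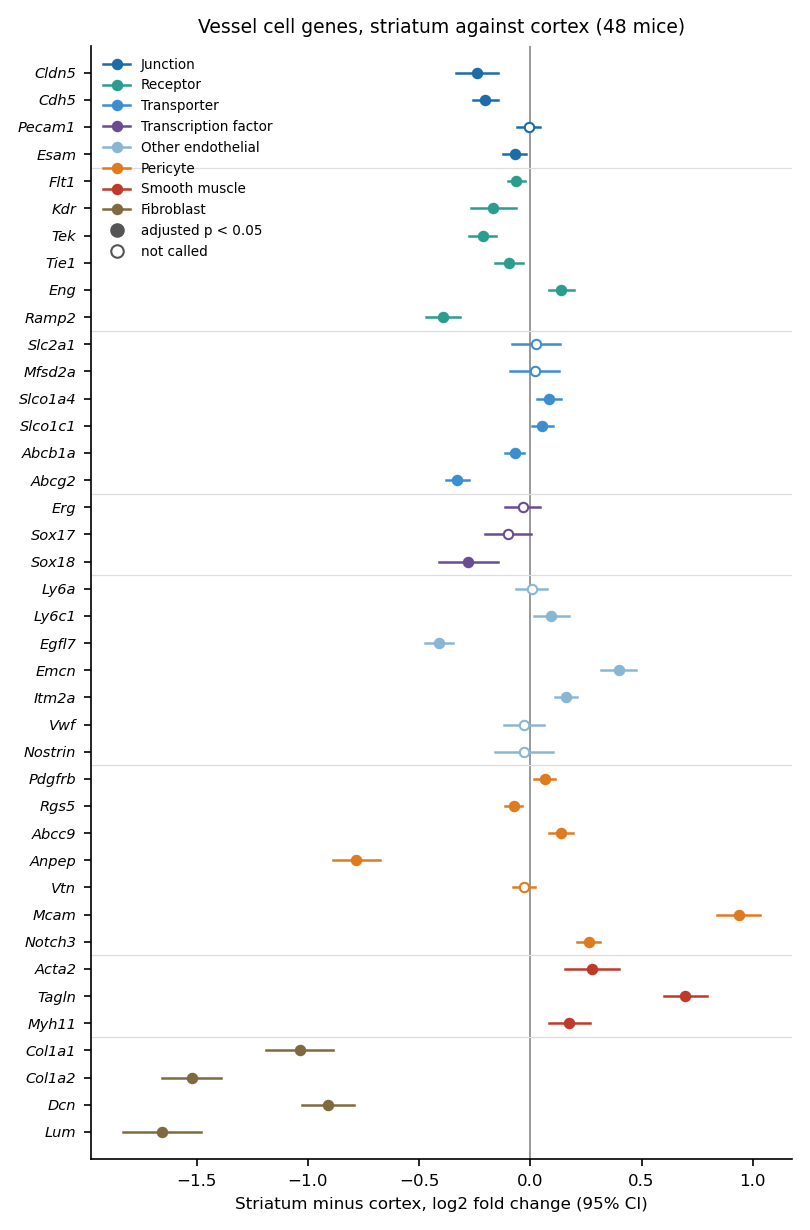
Log2 fold change of the 40 vessel genes in striatum against cortex (x axis, bars are 95% confidence intervals), grouped by role, over 48 mice; filled points have an adjusted p under 0.05. The 4 fibroblast genes lie at -0.91 or lower, while Mcam and Tagln lie farthest to the right, at 0.94 and 0.70.

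Mice of 1 genotype differed from each other, and for some vessel genes they did so alike in both tissues. After genotype and sex were taken out, the residual level of Slc2a1 in striatum followed that in cortex across 48 mice with a Pearson r of 0.917 and a Spearman rho of 0.922. The permutation p was 1e-05, the smallest that 100000 permutations can give, and 4e-05 after adjustment over 40 genes. Without the 2 mice farthest from the median r was 0.895. Wild-type mouse 21-1 had 181.3 CPM of Slc2a1 in striatum and 164.6 in cortex, and Q140 Msh6+/- mouse 21-5 had 160.3 and 199.4. At the other end Q140 mouse 24-1 had 80.4 CPM in striatum and 78.3 in cortex. These mice carry different genotypes, and their order was nearly kept between the tissues. Of the 4 mice whose number begins with 21, 3 were among the 4 highest in striatum and the 3 highest in cortex, and the labels do not say what that number stands for. Within sets of mice that share the first part of their number (43 mice in 15 sets) r for Slc2a1 was 0.837.

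In all, 20 of 40 members had an adjusted permutation p under 0.05 for this relation, each with a positive r, and 14 had an r over 0.5. No share over all genes is given for these counts. Within the sets of mice that share the first part of their number, which the permutations did not take into account, 8 members had an r over 0.5, and Ly6c1 (-0.025), Cdh5 (0.12) and Ramp2 (0.258) had low values. Mcam had an r of 0.747 (rho 0.738), Sox18 0.727, Mfsd2a 0.724, Kdr 0.723 (rho 0.748) and Nostrin 0.697, and within the same sets these were 0.518 for Mcam, 0.657 for Sox18, 0.365 for Mfsd2a, 0.445 for Kdr and 0.61 for Nostrin. Genes called for Q140 in striatum stood on both sides: Slco1a4 had an r of 0.631 and Tek 0.587, both among the 20, while Flt1 had 0.307 (permutation p = 0.034, adjusted p = 0.063), Rgs5 0.197, Tagln 0.072 and Abcb1a 0.043. Lum had the lowest r, -0.212.

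Within a tissue the same set of genes varied together or against each other, described here across 48 mice of shared genotypes with no test. Slc2a1 followed Mfsd2a (r of 0.761 in striatum and 0.865 in cortex), Nostrin (0.726 and 0.764), Ly6c1 (0.744 and 0.691) and Ramp2 (0.667 and 0.714). It ran against Mcam (-0.713 and -0.618) and Kdr (-0.641 and -0.511), which themselves rose and sank together (0.667 and 0.637). Other sets were tighter in cortex. The fibroblast genes had a median pairwise r of 0.27 in striatum and 0.707 in cortex, and Anpep followed Col1a2 in cortex (0.726) and not in striatum (-0.21). With 2 mice left out this last pair had an r of 0.559 in cortex and -0.086 in striatum. The fibroblast genes and Anpep had lower counts in striatum, such as medians of 13 for Lum and 91.5 for Col1a2, against 46 and 282 in cortex. The part of these counts in the weaker striatal r was not tested. Flt1 and Abcb1a had an r of 0.265 in striatum and 0.758 in cortex. Over all 780 pairs the median r was 0.109 in striatum and 0.269 in cortex. The widest residual spread on the log2 scale was that of Lum in striatum (SD 0.59) and Col1a1 in cortex (0.46), and the narrowest in cortex was that of Rgs5 (0.101).

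**Figure D5:**
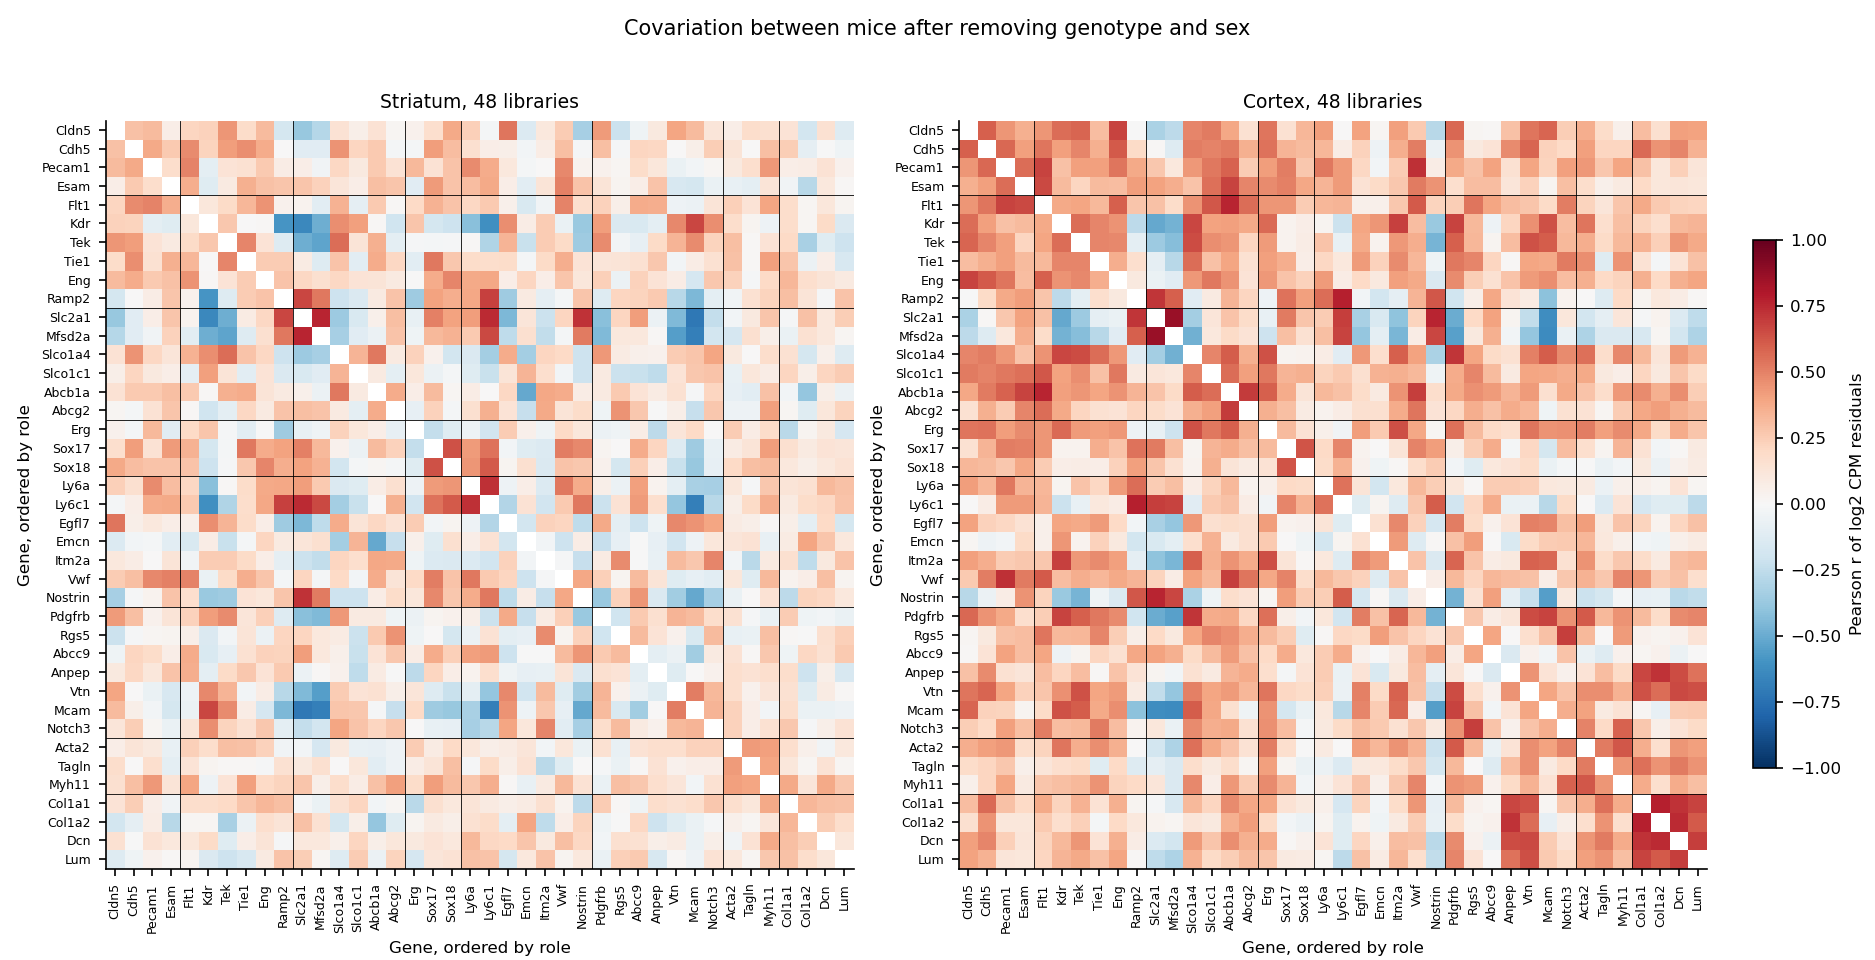
Pearson r between the residual log2 CPM of each pair of the 40 vessel genes, after genotype and sex, over 48 libraries in striatum and 48 in cortex; rows and columns are genes ordered by role, and the colour scale gives r. The fibroblast block is pale in striatum and strong in cortex, with medians of 0.27 and 0.707, and Slc2a1 is opposite in sign to Mcam and Kdr in both tissues.

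Further lists of vessel genes were counted in the averaged striatal comparison. The lists were chosen with earlier results of these data known, so the counts are a description. The genes named are among those with the smallest adjusted p of their list. Of 28 further endothelial and barrier genes 12 fell and 3 rose with Q140 (median log2 difference -0.12). Slco2b1 fell by 0.17, the junction scaffold Tjp1 by 0.11 and the phosphatase Ptprb by 0.23, while the amino acid transporter Slc7a1 rose by 0.17. Of 11 further mural genes tested 2 fell, Cspg4 (-0.16) and Higd1b (-0.25). Of 12 genes of the vascular basement membrane 4 fell, Sparc (-0.21) most clearly. Of 14 further fibroblast and meningeal genes 2 rose (Col6a2 0.55, Islr 0.40) and 2 fell (Ogn -0.31, Fn1 -0.11). The background of this comparison was 29.1% higher and 23.6% lower.

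Genes of the signalling routes to vessels were counted in the same comparison, against the same background of 23.6% lower and 29.1% higher. These lists too were chosen with earlier results known, and the genes named were picked by the smallest adjusted p. Of 23 genes of VEGF, angiopoietin, TGF-beta, Notch and PDGF signalling 14 fell and 1 rose (median -0.14). Acvrl1, a TGF-beta family receptor of endothelium, fell by 0.73 (edgeR adjusted p = 1.77e-21), the Notch ligand Jag1 by 0.89 (3.8e-15), the Notch target Hey1 by 0.31 and Vegfa by 0.23. Of 14 genes of Wnt and norrin signalling 9 fell and 0 rose, among them Adgra2 (-0.41), the endothelial co-receptor for Wnt7 ligands, and Wnt7a (-0.30). Several of these genes are also expressed by neurons or glia. Of 6 tested genes of endothelial activation and leak 4 fell: Plvap (-0.42), Ackr1 (-0.25), Icam1 (-0.27) and Vcam1 (-0.11). In cortex, where 1.54% of all genes were called, edgeR called no gene of these lists, with 3, 1 and 1 genes of the 3 signalling and activation lists at an unadjusted p under 0.05.

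Markers of several other cell types moved with Q140 in striatum as well, not all of them downwards. The summed level of the 26 endothelial members was 525.985, 587.449 and 673.018 CPM with Q140, against 603.436, 651.894 and 761.9 CPM without it, and that of the 10 mural members was 215.349, 234.42 and 258.26 CPM with Q140, against 250.482, 275.015 and 296.563 CPM without it. The 6 microglial markers all fell, with a summed level of 306.084 to 357.859 CPM with Q140, against 341.12 to 413.64 CPM without it. Of the 6 astrocyte markers 5 fell. Their sum was 3481.265 to 4117.113 CPM with Q140 (median 3814.162), against 4012.218 to 4755.218 CPM without it (median 4417.222). Of the 6 oligodendrocyte markers 4 fell. Their sum was 4102.859 to 6056.021 CPM with Q140 (median 5061.217), against 5017.013 to 7436.36 CPM without it (median 6219.684). The median log2 difference was -0.19 over the microglial markers, beside -0.17 over the 40 vessel genes. Those over the astrocyte and oligodendrocyte markers are not given here. The 5 markers of striatal neurons fell much further, with a median log2 difference of -0.69. Their summed level was 2587.27 to 2995.772 CPM with Q140, against 3980.173 to 5019.177 CPM without it. The 4 general neuron markers summed to 2430.11 to 2743.49 CPM with Q140 (median 2535.771), against 2511.425 to 2728.625 CPM without it (median 2630.433). The 5 cortical neuron markers, low in striatum, summed to 18.631 to 34.792 CPM (median 21.934), against 14.584 to 23.655 CPM (median 17.086). Of 4 choroid plexus genes tested 2 rose. Sums over all 9 listed choroid plexus genes were 23.574 to 2832.353 CPM with Q140 (median 29.496), against 19.786 to 48.741 CPM without it (median 26.07). The highest sum is that of mouse 21-3 alone, and the next striatal library had 53.26 CPM. The 2 calls without that library are not given here. Of 4 haemoglobin genes and 2 markers of perivascular macrophages 0 were called. TMM scaling factors in striatum were 1.014 to 1.046 (median 1.034) with Q140, against 0.958 to 1.016 (median 0.984) without it. The part of these markers and of the scaling in the vessel gene differences was not tested. With DESeq2's size factors the averaged striatal test called 26 members lower, as with TMM. Fewer of these calls, 21 and 22, were kept on log2 FPKM plus 0.1 and plus 1, which use no such factors.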

How the data were processed

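Per the labels' protocols, RNA was isolated by Qiagen RNeasy and sequenced from Illumina TruSeq stranded libraries. Per the submitters' processing notes, STAR 2.7.5c, SAMtools 1.10, HTSeq 0.12.3 and GRCm38 (mm10) were used. Neither the annotation release nor the strand option of HTSeq is given in the sources used here. The authors deposited a table of raw read counts and a table of FPKM values for 48795 genes and 96 libraries. The deposited FPKM equals the count divided by gene length and column total: for 12822 of 12822 well-counted genes the implied length varied by under 0.1 percent.

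The members and lists were chosen with earlier results of these data known. Counts were fitted per tissue with edgeR 4.0.16 quasi-likelihood (R 4.3.3; TMM scaling, filterByExpr with a minimum count of 10 and a total of 15), with a term for each of 6 genotypes and sex as a covariate, on 48 libraries. Differences between tissues came from a fit of 96 libraries with a term for each genotype in each tissue and sex. It had no term for the animal, and the replicate block was the alternative. Adjusted p is Benjamini-Hochberg over all genes of a comparison, called under 0.05. Printed CPM are scaled by TMM over 96 libraries; residuals are of log2(CPM + 0.05). Both tissues of a mouse were matched through its number in the labels: over 15512 genes with a mean CPM of at least 1, which are not independent replicates, the median correlation of residuals was 0.164 within a mouse (-0.058 to 0.291, over 0.1 in 45 of 48 mice) and -0.005 between mice. Whether the 8 mice of a genotype share litters is not stated, so p-values measure the spread between these mice.

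Alternatives were DESeq2 1.42.0, RLE scaling, no filter, no sex term, the first part of the animal number as a covariate, only the groups compared, an adjusted p of 0.1, limma-trend 3.58.1 on log2 FPKM plus 0.1 or 1 (mean FPKM of at least 0.1), and left-out libraries. Data were simulated for 17503 genes, with 100 genes changed by each amount. The averaged striatal test recovered 67 percent of changes of 0.25 on the log2 scale and 89 percent of changes of 0.5. In the real comparison 9225 genes were called, so these rates do not give its power. All 40 members are followed, and up to 4 genes of each further list, those with the smallest adjusted p in the averaged striatal comparison. Gene coordinates are from GENCODE M21 on GRCm38 and start regions from RefSeq on GRCm38.p6.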

Additional observations from a re-analysis of the deposited data

Results flagged for a closer look

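For 10 members shown by genotype, single mice stood far from the other 7 of their group in 11 of 120 groups of 8, where chance flags about 1 in 20. Eng had 4 of these in striatum: 40.605 CPM in Msh6-/- mouse 32-1 (the others 23.839 to 28.06), 32.039 CPM in wild-type mouse 21-1 (23.301 to 27.442), 20.269 CPM in Q140 Msh6-/- mouse 24-2 (23.164 to 25.528) and 20.921 CPM in Msh6+/- mouse 13-3 (24.979 to 28.374). Slc2a1 had 3: 199.366 CPM in the cortex of Q140 Msh6+/- mouse 21-5 (86.278 to 125.464), and 154.065 CPM in the striatum (88.092 to 116.983) and 158.833 CPM in the cortex (91.515 to 117.048) of Q140 Msh6-/- mouse 21-3. In striatum Abcb1a was low in Q140 mouse 26-1, at 30.008 CPM (34.928 to 39.031), Esam was high in Msh6+/- mouse 18-4, at 18.762 CPM (15.099 to 16.486), and Acta2 was high in Q140 Msh6-/- mouse 24-2, at 10.524 CPM (6.853 to 8.444). In cortex Abcc9 was high in Q140 mouse 19-3, at 18.389 CPM (13.151 to 15.387).

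The 7 members called in each Msh6 genotype in striatum had a Q140 effect that differed between the tissues in the joint edgeR test. The difference contains the striatal effect by which the 7 were picked, so it is not a separate result. Tagln gave -0.6149 in striatum and 0.1834 in cortex, a difference of -0.7949 on the log2 scale. The differences were -0.2746 for Flt1, -0.3154 for Rgs5, -0.3244 for Esam, -0.1942 for Abcb1a, -0.2475 for Eng and -0.3229 for Abcc9. None of these 7 had an adjusted p under 0.05 for Q140 in cortex.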

How the results depend on the processing

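Of 202 alternatives to a count over the members, 190 stayed within 1.5 times of it and no direction reversed. The averaged striatal count of 26 ran from 21 (log2 FPKM plus 0.1) to 28 (adjusted p of 0.1), and 21 of the 26 calls were kept under all 10 other settings. Ly6c1, Pecam1, Tie1 and Vtn were lost on log2 FPKM with either pseudocount and Nostrin with 0.1. The striatal pairs moved more: in Msh6+/+ mice 14 became 9 on log2 FPKM plus 0.1 and 9 plus 1, and in Msh6-/- mice 14 became 6 and 6 on the same scales, 9 with only the 2 groups and 9 without the striatal libraries of mice 32-1 and 21-1. The cause was not tested, beyond the smaller number of libraries in these last fits. The striatum-minus-cortex count of 25 became 15 on log2 FPKM plus 0.1 and 32 with the animal as a replicate block. The same block gave 13 higher and 19 lower members in striatum against cortex in place of 13 and 18, adding Sox17 (edgeR adjusted p = 0.00386). Sex called 0 members in striatum and 3 at an adjusted p of 0.1, 1 without mice 32-1 and 21-1 and 2 without mouse 21-5, and 0 in cortex with 3 at an adjusted p of 0.1 and 1 with DESeq2. The split of all genes in the tissue difference was 3939 higher and 2980 lower, 6105 and 2035 on log2 FPKM and 2761 and 3322 with no filter. Leaving out the striatal libraries of mice 32-1, 21-1 and 21-5 and the cortical library of mouse 15-1 was chosen after seeing the data. Tagln ranged from -0.62 to -0.43 over the settings, Flt1 from -0.25 to -0.15, Rgs5 from -0.26 to -0.18 and Esam from -0.26 to -0.15. Depth limits Lum and the other sparse fibroblast genes.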
